A study of Mus musculus with 51 samples.

Results

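Promoters gained by diplonema were taken as sites at an annotated transcript 5′ end that had an H3K4me3 peak in both diplonema libraries and in none of the 4 leptonema and zygonema libraries. The peaks of the 10 H3K4me3 lists, made with the EpiCypher antibody, merged into 25578 sites, of which 12509 overlapped the 500 bp on either side of a GENCODE M21 5′ end on mm10. Of these promoter sites, 787 (6.29%) met the rule. They held 945 of the 14621 genes with a promoter site (6.46%), and 152 of the 787 sites held the 5′ ends of more than 1 gene. The calls in diplonema, leptonema and zygonema chose the sites, so these calls are not a result. The calls in early and late pachynema, the H3K4me2/3 calls and the H3K9ac calls were not used by the rule. The antibody of the H3K4me2/3 calls also binds H3K4me3, so these calls are not independent of the rule. The H3K9ac calls are not independent of it either, because they went with the H3K4me3 calls of leptonema and zygonema.

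The study sorted nuclei of C57Bl/6J wild-type adult male mice into the substages of meiotic prophase I and mapped histone marks in each by ChIP-Seq. Nuclei were taken from formaldehyde-fixed whole testis, gated for a replicated genome by DNA content and separated by antibodies to nuclear proteins. SCP3 and STRA8 marked leptonema, and SCP3, H1t and SCP1 separated zygonema, early pachynema, late pachynema and diplonema. Each group used here is thus a sorted population of nuclei and can hold nuclei of a neighbouring substage. H3K4me3 had 2 libraries per stage, named experiment 1 and experiment 2. H3K4me2/3, from an Abcam antibody that binds dimethylated as well as trimethylated lysine 4, had 1 library per stage, all of experiment 2. H3K9ac also had 1 library per stage, all of experiment 1. The stages of these 2 marks therefore have no replicates. The labels of the H3K9ac libraries give that mark in their titles but an H3K4me3 antibody in the antibody field, and they were taken here as H3K9ac.

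H3K4me3 is a histone mark of active and poised promoters, and H3K9ac is an acetylation found at promoters in use. In male meiosis many genes of later spermatid life, for the acrosome, the flagellum and a sperm-specific energy metabolism, are switched on during pachynema, while their proteins are often made only after the divisions. Transcription factors of the MYB and RFX families, MYBL1 and RFX2 among them, are known regulators of this programme.

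A list gave the position of each peak and no height or read count, so the depth behind a call is unknown and a missing peak does not show that the mark was absent. The numbers of peaks in the H3K4me3 lists ranged from 4883 to 15699, with 6645 and 12071 in the 2 diplonema lists. Late pachynema had 5189 peaks in experiment 1 and 9124 in experiment 2. Of the genes behind the sorting markers, Stra8 had a peak in both leptonema libraries only, and Sycp3 had a peak in all 10. Hist1h1t, the gene of histone H1t, was called once in leptonema, once in zygonema and never later, so that H3K4me3 at this gene did not follow the use of its protein as a later marker. Of 17 Sertoli cell markers, 6 had a peak in leptonema experiment 2, 4 in each of late pachynema experiment 2 and diplonema experiment 2, and 1 or 2 in the other libraries. Leydig cell markers had 0 to 2 of 11 per library, and markers of peritubular myoid, endothelial and macrophage cells 0 or 1 of 17. None of the gained promoters belonged to the lists of Sertoli cells, Leydig cells, or peritubular myoid, endothelial and macrophage cells, and none to the list of spermatogonial genes. In that order, 8, 2, 1 and 9 genes of these lists had a promoter site. Of all genes with a promoter site 6.46% had a gained promoter, and counts this small cannot tell none from that share.

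Sequences of the promoters of 7 gained sites are given to show how they vary in 2 properties described in detail further on, the number of CpG dinucleotides and the letters of MYB and RFX motifs. They are the 250 bases before the RefSeq 5′ end on GRCm38.p6, the assembly that mm10 names, written 5′ to 3′ along the gene. Capitals mark matches on either strand to AACNGNC, the MYB letters, or to GTTGCCA, the RFX letters. Of the 787 sites, 432 could be matched to a RefSeq promoter of one of their genes. Ldhal6b encodes a lactate dehydrogenase-like protein (chr17:5418768-5419017, minus strand) and Ldhc the testis lactate dehydrogenase (chr7:46861013-46861262, plus strand). Hydin encodes a central pair protein of the axoneme (chr8:110266727-110266976, plus strand) and Tekt1 a tektin of flagellar microtubules (chr11:72361883-72362132, minus strand). Pgk2 encodes the testis phosphoglycerate kinase (chr17:40208610-40208859, minus strand), Trim69 a ubiquitin ligase (chr2:122160458-122160707, plus strand) and Actl9 an actin-like protein of the sperm head (chr17:33432649-33432898, plus strand).
Ldhal6b: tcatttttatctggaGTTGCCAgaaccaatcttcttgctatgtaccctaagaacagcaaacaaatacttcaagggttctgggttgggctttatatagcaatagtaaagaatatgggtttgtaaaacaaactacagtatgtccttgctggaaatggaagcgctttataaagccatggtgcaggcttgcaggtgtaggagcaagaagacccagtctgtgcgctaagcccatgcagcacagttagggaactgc
Ldhc: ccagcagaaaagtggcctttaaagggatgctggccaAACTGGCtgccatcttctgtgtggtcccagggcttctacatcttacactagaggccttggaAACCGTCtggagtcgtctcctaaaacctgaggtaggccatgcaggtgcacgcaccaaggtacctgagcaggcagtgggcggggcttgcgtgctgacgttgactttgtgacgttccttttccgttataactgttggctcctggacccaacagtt
Hydin: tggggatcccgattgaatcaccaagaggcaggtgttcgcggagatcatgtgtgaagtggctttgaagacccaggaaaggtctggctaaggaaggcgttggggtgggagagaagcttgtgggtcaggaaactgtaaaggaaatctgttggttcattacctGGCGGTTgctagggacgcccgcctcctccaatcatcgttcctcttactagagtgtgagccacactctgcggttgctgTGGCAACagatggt
Tekt1: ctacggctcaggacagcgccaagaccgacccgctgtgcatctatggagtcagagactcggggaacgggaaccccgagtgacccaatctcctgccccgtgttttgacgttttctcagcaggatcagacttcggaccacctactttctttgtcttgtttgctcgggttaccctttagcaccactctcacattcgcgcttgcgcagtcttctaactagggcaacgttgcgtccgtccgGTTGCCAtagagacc
Pgk2: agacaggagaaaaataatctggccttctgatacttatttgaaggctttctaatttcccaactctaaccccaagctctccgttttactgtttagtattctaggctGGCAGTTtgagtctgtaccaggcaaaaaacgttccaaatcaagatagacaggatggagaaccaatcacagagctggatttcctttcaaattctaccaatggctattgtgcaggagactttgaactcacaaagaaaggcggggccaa
Trim69: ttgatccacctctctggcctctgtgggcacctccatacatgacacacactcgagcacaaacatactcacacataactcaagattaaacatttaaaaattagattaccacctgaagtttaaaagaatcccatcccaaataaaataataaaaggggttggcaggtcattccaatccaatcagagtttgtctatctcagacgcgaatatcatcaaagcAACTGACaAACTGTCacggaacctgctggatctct
Actl9: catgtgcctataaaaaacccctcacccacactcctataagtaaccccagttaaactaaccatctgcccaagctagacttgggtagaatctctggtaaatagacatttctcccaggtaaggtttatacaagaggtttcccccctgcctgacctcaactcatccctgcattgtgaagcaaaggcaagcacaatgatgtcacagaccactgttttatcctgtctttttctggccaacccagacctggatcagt
In these 250 bases the promoter of Actl9 held no CpG, that of Ldhal6b 2, Pgk2 3, Trim69 4, Ldhc 8, Hydin 9 and Tekt1 18, and Actl9 held neither motif. RFX letters began 14 bases before the 5′ end of Hydin, 15 before that of Tekt1 and 235 before that of Ldhal6b. MYB letters began 27 and 35 bases before the 5′ end of Trim69, 91 before that of Hydin, 146 before that of Pgk2, and 153 and 214 before that of Ldhc.

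Most gained promoters first had an H3K4me3 peak in late pachynema, but this rested on 1 library. In early pachynema, 123 of the 787 promoters had a peak in experiment 1 (15.6%, exact 95% interval 13.2 to 18.4) and 60 in experiment 2 (7.62%, 5.87 to 9.70). In late pachynema, 186 had one in experiment 1 (23.6%, 20.7 to 26.8) and 552 in experiment 2 (70.1%, 66.8 to 73.3). Among all promoter sites these shares were 51.1% and 37.6% in early pachynema and 39.7% and 64% in late pachynema, so that only late pachynema experiment 2 marked a larger share of the gained promoters than of all promoter sites. The intervals, here and below, cover counting error over sites only.

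The mean share was 46.9% ± 32.9 (SD, n = 2 libraries) in late pachynema and 11.6% ± 5.66 (SD, n = 2) in early pachynema. The difference of 35.3 percentage points was not distinguishable from the spread between libraries (p = 0.333 by a two-sided exact permutation test, the lowest value that 2 libraries against 2 allow). By the purities and chromatin amounts given in the study, the late pachynema sort of experiment 2 was less pure and smaller than that of experiment 1, and the part of this in the result was not tested. Within experiment 1 the difference was 8.01 points and within experiment 2 it was 62.5 points. Without late pachynema experiment 2 it was 11.9 points.

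Counted by the first stage with a peak in at least 1 library, early pachynema was the first for 130 promoters (16.5%), late pachynema for 431 (54.8%) and diplonema for 226 (28.7%, exact 95% interval 25.6 to 32.0). The pattern with a peak in late pachynema experiment 2 and in no other pachynema library held for 351 promoters. Both late libraries and neither early one had a peak at 77, and all 4 pachynema libraries had one at 48. When both libraries of a stage were required, early pachynema came first for 53 promoters, late pachynema for 135 and diplonema for 599 (76.1%). Without late pachynema experiment 2, the share first called in diplonema was 73.2%. Among the 130 promoters called in early pachynema were Ccna1, which encodes the germ cell cyclin A1, Ldhc, Ldhal6b and Gk2, a testis glycerol kinase. Among the 226 first called in diplonema were Trim69, Aurkc, which encodes the meiotic Aurora C kinase, Crem, the gene of a regulator of spermatid transcription, and Hk1, the gene of hexokinase 1.

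**Figure D1:**
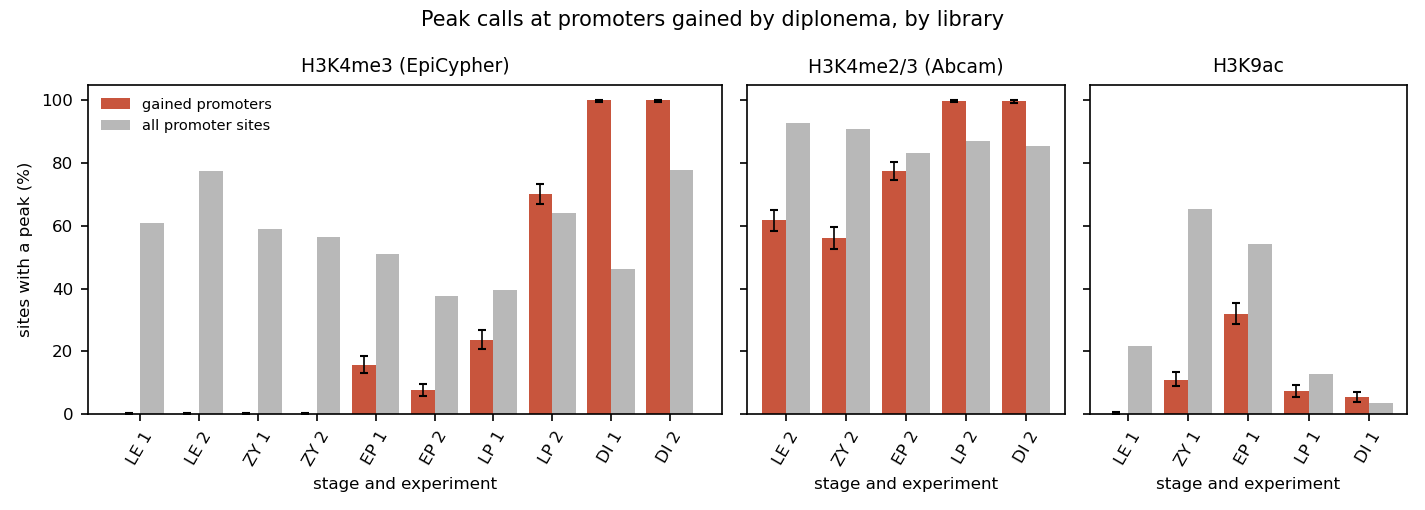
Percentage of the 787 gained promoters (red, with exact 95% binomial intervals) and of all 12509 promoter sites (grey) with a peak in each library, by stage (LE leptonema, ZY zygonema, EP early pachynema, LP late pachynema, DI diplonema) and experiment number. The H3K4me3 shares of 0% in LE and ZY and of 100% in DI are fixed by the rule, and in pachynema the share of gained promoters ranged from 7.62% to 70.1%.

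The Abcam antibody gave a peak in leptonema or zygonema at most gained promoters, where the rule allowed no H3K4me3 call. In leptonema 486 promoters had an H3K4me2/3 peak (61.8%, exact 95% interval 58.3 to 65.2), and in zygonema 441 did (56.0%, 52.5 to 59.5). The early pachynema count was 610 (77.5%, 74.4 to 80.4), while late pachynema had 786 (99.9%) and diplonema 785 (99.7%). Of all promoter sites, leptonema marked 92.7% and zygonema 90.7%, whereas early pachynema marked 83.2%, late pachynema 86.9% and diplonema 85.5%, so that there the earlier stages had the higher shares. The leptonema and zygonema lists were also the longest of this antibody, with 30943 and 29114 peaks against 17561 to 19711 later. The H3K4me3 lists of experiment 2 held 13095 peaks in leptonema and 11314 in zygonema. A call by the Abcam antibody alone therefore gives no order in time. The mean share of gained promoters was 92.4% ± 12.9 (SD, n = 3 libraries) over the later stages and 58.9% ± 4.04 (SD, n = 2) over leptonema and zygonema. The difference of 33.5 points was not past the threshold (p = 0.2 by a two-sided exact permutation test, the lowest value that 3 libraries against 2 allow), although the lowest later share lay above the highest earlier one. It was 15.2 points without diplonema experiment 1 and 13.0 points with H3K4me3 lists of equal length. The rule asked for H3K4me3 in diplonema and not in leptonema or zygonema, and this antibody also binds H3K4me3. The part of the rule in the difference was not tested.

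Taken by promoter, 529 (67.2%) had an H3K4me2/3 peak in leptonema or zygonema and 258 had none in either. Of the 258, 136 were first called with this antibody in early pachynema and 121 in late pachynema. A peak at all 5 stages was found at 364 promoters. The promoters without an early H3K4me2/3 peak included Crem, Hk1, Rfx4, which encodes an RFX family factor, Acr, which encodes the acrosomal protease acrosin, and Pgk2. Those with it included Acrbp, the gene of the acrosin-binding protein, at 1994 bp in leptonema and 1638 bp in zygonema, and Tdrd6, the gene of a tudor protein of the chromatoid body, at 2041 bp and 1630 bp.

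The H3K4me2/3 peaks at gained promoters were narrower in the early stages and wider in diplonema. At the 486 promoters with a peak in both leptonema and diplonema, the diplonema peak was the wider one at 472 (97.1%), and the median ratio of the widths was 2.95 (interquartile range 1.99 to 4.89). At all promoter sites with a peak in both libraries the diplonema peak was wider at 62.5%, with a median ratio of 1.21. At the sites called with H3K4me3 in both diplonema and all 4 leptonema and zygonema libraries, the median ratio was 1.47. Between zygonema and diplonema the ratio at gained promoters was 3.44, between early pachynema and diplonema 3.04 and between late pachynema and diplonema 1.18. The median width of this mark at gained promoters was 832 bp in leptonema and 730 bp in zygonema. It then went from 896 bp in early pachynema to 2256 bp in late pachynema and 2638 bp in diplonema. Each stage is a single library, so the ratios have no replicate check. How depth or enrichment moved with the widths, and the part of the rule in them, was not tested.

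**Figure D2:**
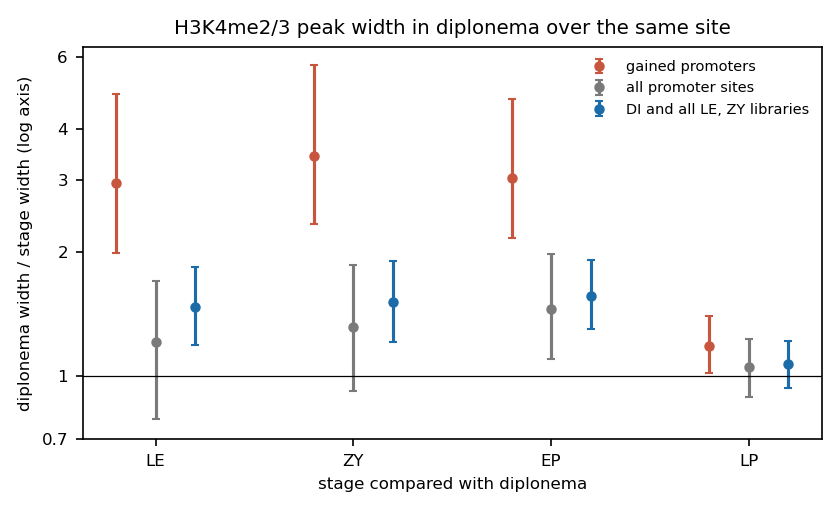
Width of the H3K4me2/3 peak in diplonema divided by its width in an earlier stage at the same site (log axis), for gained promoters, for all promoter sites and for promoter sites called with H3K4me3 in both diplonema and all 4 leptonema and zygonema libraries. Points are medians and bars interquartile ranges over sites, and the gained promoters lie at 2.95 to 3.44 for the first 3 stages and at 1.18 for late pachynema.

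H3K9ac was called at gained promoters mainly in early pachynema. The early pachynema list had a peak at 252 promoters (32.0%, exact 95% interval 28.8 to 35.4), against 54.3% of all promoter sites. Before it, leptonema had 1 (0.127%, against 21.6%) and zygonema 86 (10.9%, 8.83 to 13.3, against 65.4%). After it, late pachynema had 57 (7.24%, 5.53 to 9.28, against 12.9%) and diplonema 42 (5.34%, 3.87 to 7.15, against 3.39%). The H3K9ac lists held 2823, 16003, 7744, 1727 and 516 peaks from leptonema to diplonema, and the share at gained promoters was largest in a list that was not the longest. No H3K9ac peak was called at any stage at 493 of the promoters. At promoter sites of both diplonema libraries, the H3K9ac shares rose with the number of leptonema and zygonema libraries that called H3K4me3. From the gained promoters to the sites called in all 4, the zygonema share went from 10.9% to 99.2% and the early pachynema share from 32.0% to 97.0%. The part of the rule in the low leptonema and zygonema shares was not tested. The mean share was 14.9% ± 14.9 (SD, n = 3) over the 3 later stages and 5.53% ± 7.64 (SD, n = 2) over leptonema and zygonema. Each library was a different stage, so these SDs hold differences between stages and no replicate spread. The difference of 9.34 points was not past the threshold (p = 0.6 by a two-sided exact permutation test). When the H3K4me3 lists were cut to 1 common length by peak width, this difference had the opposite sign, at -1.14 points, and without diplonema experiment 1 it was 3.43 points.

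In early pachynema, H3K9ac was called at more of these promoters than H3K4me3 of the same experiment, 252 against 123. H3K4me3 was not called in experiment 1 at 151 of the 252 (59.9%), against 878 of the 6792 promoter sites with this H3K9ac call (12.9%), and in neither experiment at 147 of the gained promoters. Of these 147, 146 had an early pachynema H3K4me2/3 peak. The H3K9ac list of early pachynema, with 7744 peaks, was longer than the H3K4me3 list of experiment 1, with 6647, and among all promoter sites the marks stood at 6792 and 6388. The gained promoters were chosen for no H3K4me3 call in leptonema and zygonema, so 59.9% and 12.9% are not shares of like sites. All promoter sites include 4070 called in both diplonema and all 4 leptonema and zygonema libraries. Of those, 97.2% had an H3K4me3 peak in early pachynema experiment 1. The order in which the marks appear was not tested.

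The stage of the first H3K4me3 call went with the other marks. H3K9ac in early pachynema was found at 80.8% of the 130 promoters first called in early pachynema, 29.0% of the 431 first called in late pachynema and 9.73% of the 226 first called in diplonema. H3K4me2/3 in leptonema was found at 79.2%, 65.7% and 44.2% of the same groups. The mean width percentile of the diplonema peaks, which ranks each peak within its own list, had a median of 65.3, 66.1 and 42.0 in the 3 groups. The promoters first called in diplonema thus had the narrower diplonema peaks, and the part of peak width in the stage of the first call was not tested.

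**Figure D3:**
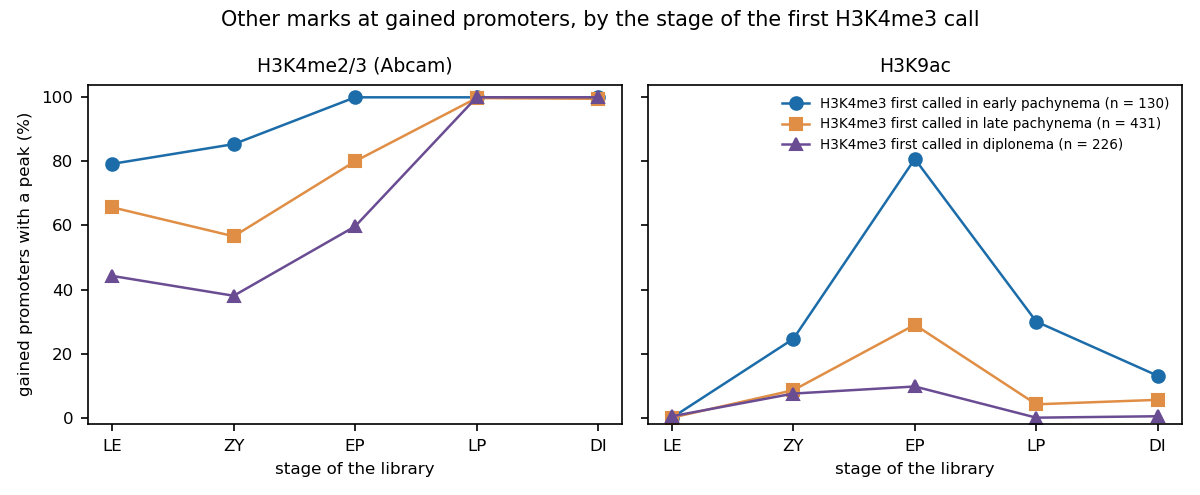
Percentage of gained promoters with an H3K4me2/3 (left) or H3K9ac (right) peak in the library of each stage, for promoters whose first H3K4me3 peak was in early pachynema (circles), late pachynema (squares) or diplonema (triangles). H3K9ac in early pachynema stands at 80.8%, 29.0% and 9.73% in the 3 groups.

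Gained promoters were frequent among genes of the acrosome, the flagellum and testis metabolism. Of all genes with a promoter site 6.46% had one, and the lists were described by their counts without a test. Of 16 measured genes for the acrosome and egg binding, 8 had a gained promoter, as did 22 of 48 for the flagellum and motility and 8 of 19 for testis-specific metabolism. For ubiquitin and proteolysis in the testis the count was 4 of 15. A gained promoter was found for 3 of 36 regulators of late prophase and spermatids (8.33%), Crem, Tdrd6 and Rfx4. The same held for 2 of 38 genes of the meiotic divisions (5.26%), Ccna1 and Aurkc. These shares were near that of all genes. Nearly all the others on the last 2 lists had a peak in leptonema or zygonema, 32 and 36 genes. The 47 genes had 48 gained sites, and early pachynema was the first stage of 12, late pachynema of 27 and diplonema of 9.

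None of the 6 genes of the compaction of sperm chromatin with a promoter site had a gained promoter, too few to set against 6.46% of all genes. Of 13 such genes, 6 had an H3K4me3 peak in leptonema or zygonema, Hist1h1t and Brdt among them. The other 7 had none in any library, among them Prm1 and Prm2, which encode protamines, and Tnp1 and Tnp2, which encode transition proteins. In the acrosome list, 20 genes had no H3K4me3 peak in any library, Izumo1, Spam1 and Acrv1 among them, and 8 had one in leptonema or zygonema, such as Zpbp and Adam2. The flagellum list had 16 without a peak, Akap3, Odf1 and Catsper1 among them.

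Genes of testis metabolism had the widest peaks among the lists with more than 5 gained sites, with medians of 1135 bp in diplonema experiment 1 and 1743.5 bp in experiment 2. At Ldhc (site 46860105 to 46862026 on chromosome 7), the H3K4me3 peak spanned 610 bp in early pachynema experiment 1 and was missing in experiment 2, then spanned 1161 and 1922 bp in late pachynema and 1486 and 1688 bp in diplonema, for experiments 1 and 2. Its H3K4me2/3 peak was missing in leptonema and spanned 641 bp in zygonema, 1468 bp in early pachynema, 3723 bp in late pachynema and 6873 bp in diplonema. H3K9ac spanned 1444 bp in early pachynema, 558 bp in late pachynema and 608 bp in diplonema. Ldhc thus had a peak of all 3 antibodies in each stage from early pachynema on.

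Ldhal6b was called in all 6 later H3K4me3 libraries, with widths of 714 and 501 bp in early pachynema, 723 and 961 bp in late pachynema and 1652 and 1776 bp in diplonema. At Pgk2, which replaces the X-linked enzyme in spermatocytes, H3K4me3 was called in late pachynema experiment 2 at 853 bp and in diplonema at 779 and 1997 bp. Its H3K4me2/3 peak spanned 328 bp in early pachynema, 5111 bp in late pachynema and 4982 bp in diplonema, and H3K9ac was called in early pachynema only, at 698 bp. Pgam2, the gene of a phosphoglycerate mutase, had peaks of 520 bp in late pachynema experiment 2 and of 1602 and 1934 bp in diplonema. At Cpt1b, which encodes a carnitine palmitoyltransferase, the same libraries gave 990, 1160 and 1711 bp. Neither of these promoters had a peak in the other pachynema libraries. Hk1 had the narrowest diplonema peaks of this list, at 463 and 733 bp, with no H3K9ac peak, and the gene had another promoter site with H3K4me3 peaks of 767 and 408 bp in leptonema. The testis glycerol kinase genes differed in their first stage: Gk2 had 210 bp in early pachynema experiment 1, 504 and 856 bp in late pachynema and 1110 and 2120 bp in diplonema, while Gykl1 was called in diplonema only, at 998 and 1559 bp. Over the list, 5 of the 8 promoters had an H3K4me2/3 peak in leptonema or zygonema and 6 had H3K9ac in early pachynema.

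For the acrosome, the 8 gained promoters were those of Acr, Acrbp, Spaca9, Pcsk4, Dpy19l2, Adam3, Crisp2 and Atp8b3. Acr had H3K4me3 peaks of 755 bp in late pachynema experiment 2 and of 1494 and 1287 bp in diplonema. Its H3K4me2/3 peak spanned 927 bp in early pachynema, 5113 bp in late pachynema and 3919 bp in diplonema, and H3K9ac was called at 1228 bp in early pachynema. Adam3, which encodes a sperm surface protein needed to reach the egg, had 525 and 890 bp in late pachynema and 1380 and 1073 bp in diplonema. Of the 8, only Atp8b3, which encodes a phospholipid flippase, was called in early pachynema, at 175 bp in experiment 1. The gained site of Pcsk4, the gene of a sperm proprotein convertase, was called in diplonema alone with narrow peaks of 266 and 325 bp. Yet this site had an H3K4me2/3 peak at every stage, from 1260 to 3875 bp, and H3K9ac peaks of 1222 bp in zygonema and 592 bp in early pachynema. It also holds a 5′ end of Reep6. Another promoter site of Pcsk4 had an H3K4me3 peak of 222 bp in late pachynema experiment 2. Of these 8 promoters, 7 had an H3K4me2/3 peak in leptonema or zygonema and 4 had H3K9ac in early pachynema.

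The flagellum gave the largest group, with 23 gained sites of 22 genes. They included axonemal dynein genes (Dnah1, Dnah17, Dnaic2 and Dnali1), tektins (Tekt1, Tekt3 and Tekt4), genes of the central pair (Hydin, Spag17 and Spag6l), of the nexin-dynein regulatory complex (Drc1, Drc7 and Tcte1) and of the sperm calcium channel CatSper (Catsperb, Catsperd and Catspere1). The annotation gives Catspere1 as a pseudogene, with no protein-coding gene at its site. Widths in diplonema at the 23 sites ran from 183 to 1524 bp in experiment 1 and from 350 to 1608 bp in experiment 2. Tcte1 had the widest peaks, at 1524 and 1608 bp, after 1019 bp in late pachynema experiment 2. At Ccdc39 and Spag6l all 6 later libraries had a peak. Ccdc39, which encodes a ruler protein of the axoneme, had 321 and 334 bp in early pachynema, 462 and 642 bp in late pachynema, and 1099 and 1532 bp in diplonema. Its peak was thus wider at each later stage in both experiments, and H3K9ac was called there from zygonema to late pachynema, at 280, 478 and 315 bp. Other promoter sites of some of these genes had H3K4me3 peaks in zygonema. They spanned 726 bp in experiment 1 for Ccdc39, 154 bp in experiment 1 for Dnaic2, and 954 and 1046 bp in experiments 1 and 2 for Tekt3. Drc7, Catsperd and Dnali1 were first called in diplonema. In the flagellum list, 15 sites were first called in late pachynema, 5 in early pachynema and 3 in diplonema, 16 had an H3K4me2/3 peak in leptonema or zygonema, and 10 had H3K9ac in early pachynema.

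Tdrd6 was the widest of the regulators, with 605 bp in early pachynema experiment 1, 590 and 1429 bp in late pachynema, and 1436 and 2633 bp in diplonema. Ccna1 had 173 and 197 bp in early pachynema, 394 and 1253 bp in late pachynema, and 1385 and 1673 bp in diplonema. Both had H3K9ac in early and late pachynema. Aurkc had only narrow diplonema peaks of 273 and 494 bp, no H3K9ac peak, and H3K4me2/3 peaks of 1187 bp in late pachynema and 1888 bp in diplonema. Trim69 was first called in diplonema, with 1415 and 1666 bp there, an H3K4me2/3 peak of 196 bp in early pachynema followed by 2858 and 3918 bp, and no H3K9ac peak. The other members of the ubiquitin and proteolysis list were called in pachynema. March10, the gene of a ubiquitin ligase of the membrane-bound kind, had 196 bp in early pachynema experiment 1, 252 and 710 bp in late pachynema and 525 and 1184 bp in diplonema. Prss21, which encodes the testis serine protease testisin, had 368 bp in late pachynema experiment 2 and 1137 and 1333 bp in diplonema, and Ube2u, a ubiquitin conjugating enzyme gene, had 448, 488 and 786 bp in the same libraries.

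**Figure D4:**
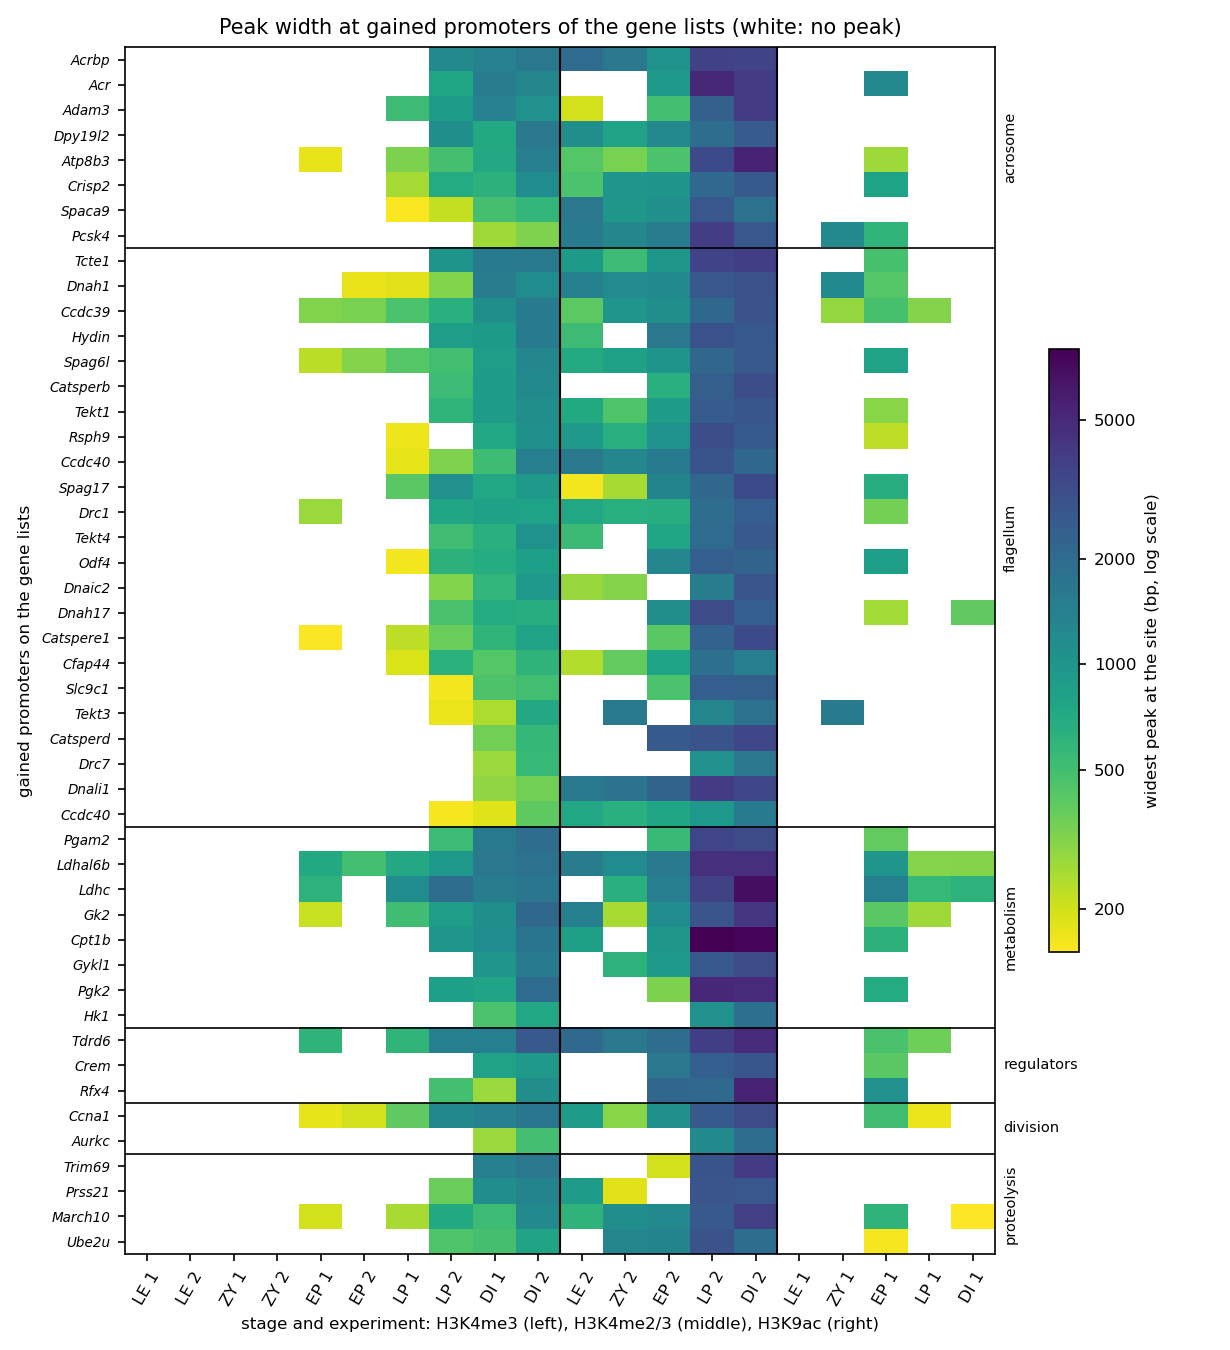
Width of the widest peak (colour, log scale in bp, white for no peak) at the 48 gained promoters on the gene lists, in rows grouped by list, for 10 H3K4me3 libraries (left), 5 H3K4me2/3 libraries (middle) and 5 H3K9ac libraries (right), by stage and experiment number as in the plot of shares by library. The empty LE and ZY columns of H3K4me3 are fixed by the rule. Ccdc40 has 2 sites and 2 rows.

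Outside the lists, the widest diplonema peaks lay at promoters of little-studied genes. Of the 12 gained promoters with the highest mean width percentile, 5 held a protein-coding gene (Prdx6b, Magi2, Actl9, Ptchd3 and Gm13889), 5 long noncoding RNA genes alone and 2 pseudogenes. Prdx6b, which encodes a relative of peroxiredoxin 6, had peaks of 2258 and 2954 bp in diplonema, 341 and 1078 bp in late pachynema and none in early pachynema. Ptchd3, which encodes a patched-domain protein of sperm, was called in all 6 later libraries, at 1058 and 799 bp, 1050 and 1491 bp, and 2438 and 2475 bp. It also had the widest H3K9ac peak in diplonema of any gained promoter, at 1139 bp, after 2366 bp in early and 458 bp in late pachynema. Actl9 had no CpG in its promoter and peaks of 2199 and 2777 bp in diplonema. At the other end, Cfap126, the gene of a ciliary protein, had the narrowest peaks, at 161 and 144 bp, but H3K4me2/3 peaks of 3355 bp in late pachynema and 2390 bp in diplonema. The member of median width percentile, the site of Pla2g2c and Ubxn10, had 714 and 990 bp. Over all gained promoters the median width was 683 bp in diplonema experiment 1 (161 to 2577) and 1130 bp in experiment 2 (144 to 4716). The median of their mean width percentiles was 57.3, and that of the other promoter sites called in both diplonema libraries was 62.8.

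H3K9ac was found in late pachynema or diplonema at 75 gained promoters (9.53%), against 13.8% of all promoter sites. It was found in early pachynema, late pachynema and diplonema but not before at 17. The promoters called in all 6 later H3K4me3 libraries numbered 48 (6.10%), against 28.6% of all promoter sites. Wdfy3, which encodes a large adaptor of selective autophagy, was one of them, with 225 and 318 bp in early pachynema, 440 and 1143 bp in late pachynema, and 1570 and 1706 bp in diplonema. It had no H3K4me2/3 peak in leptonema or zygonema. Pih1d3, the gene of a dynein assembly factor, and Ppp3r2, that of the testis subunit of calcineurin, had H3K9ac in diplonema only, at 452 and 177 bp. Their H3K4me3 peaks spanned 1444 and 2175 bp in diplonema for Pih1d3, and 1599 and 1827 bp for Ppp3r2.

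The sequence of gained promoters was poor in CpG. In windows from 250 bases before to 50 after the 5′ end, the ratio of observed to expected CpG had a median of 0.463 (interquartile range 0.272 to 0.656), against 0.806 for all promoter sites and 0.907 for those called in both diplonema and all 4 leptonema and zygonema libraries. The median GC content was 53.0% at gained promoters and 63.7% at all promoter sites. With CpG-rich windows taken as a ratio of at least 0.6 and a GC content of at least 50%, 223 of the gained promoters (28.3%) and 73.9% of all promoter sites were CpG-rich. Among the gained promoters, 35.4% of those first called in early pachynema, 32.7% of those first called in late pachynema and 15.9% of those first called in diplonema were CpG-rich. The contrast was larger by H3K4me2/3: of the 529 promoters with this mark in leptonema or zygonema 40.3% were CpG-rich, and of the 258 without it 3.88%. The 258 had a median CpG ratio of 0.228, with 4 CpGs in 300 bases. By H3K9ac in early pachynema the shares were close to each other, 29.0% with the mark and 28.0% without. Repeats covered on average 12.8% of the windows of gained promoters and 8.56% of those of all promoter sites. These are descriptions of the windows, and no test was made between the sets.

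Letters of the MYB motif, AACNGNC on either strand, were found in 463 of the 787 windows (58.8%), against 34.4% of all 12509 windows of the same length. Those of the RFX motif, GTTGCCA, were found in 81 (10.3%), against 4.14%. The patterns can share the letters AAC. Both were found in 43 gained promoters (5.46%) and in 1.97% of all promoter sites. Because CpG content differs between the sets, the shares were also taken within CpG classes. MYB letters stood at 62.9% of CpG-poor gained promoters and 40.9% of all CpG-poor sites, and at 48.4% and 32.0% of the CpG-rich ones. For RFX the shares were 11.0% and 6.37% among CpG-poor windows, and 8.52% and 3.35% among CpG-rich windows. Of the gained promoters without an early H3K4me2/3 peak, 72.5% held MYB letters, and of those with it 52.2%. These groups also differed in CpG content, with 3.88% and 40.3% CpG-rich, and this contrast was not split by CpG class.

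Both patterns differed most from all promoter sites around the 5′ end. In the 50 bases before it, MYB letters began in 23.4% of the gained promoters and 8.10% of all promoter sites, and between 250 and 200 bases before it in 8.01% and 6.98%. They also began in 16.5% and 7.08% between 100 and 50 bases before it, and in 14.1% and 6.82% in the 50 bases after it. For RFX letters these shares were 4.07% and 1.01% in the nearer bin, and 0.889% and 0.624% in the farther one. Between 100 and 50 bases before the 5′ end they were 2.03% and 0.807%, and in the 50 bases after it 2.03% and 0.608%. The RFX letters of Hydin and Tekt1 and the MYB letters of Trim69 in the sequences printed above lie within this nearer bin, and the MYB letters of Hydin lie outside it. The other patterns went in both directions when the CpG classes were pooled. The GC box (GGGCGG) stood at 33.4% of gained promoters against 64.5% of all, TGACGT of the cAMP response element at 5.34% against 10.3%, CACGCG, a TCFL5 pattern, at 12.2% against 19.8%, and the E-box CACGTG at 9.66% against 9.98%. The CCAAT letters were at 38.5% against 33.8%, TATAAA at 8.51% against 6.02% and AACAATG, a SOX pattern, at 2.67% against 1.73%. Within CpG classes the TCFL5 pattern was more frequent at gained promoters, at 26.5% against 24.7% (CpG-rich) and 6.56% against 5.98% (CpG-poor). So was the E-box, at 13.9% against 10.9% and 7.98% against 7.39%. The GC box and the cAMP response element were less frequent in both classes. Each of the remaining patterns went in opposite directions in the CpG-rich and CpG-poor classes. A match is a run of letters and does not show binding of a factor.

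**Figure D5:**
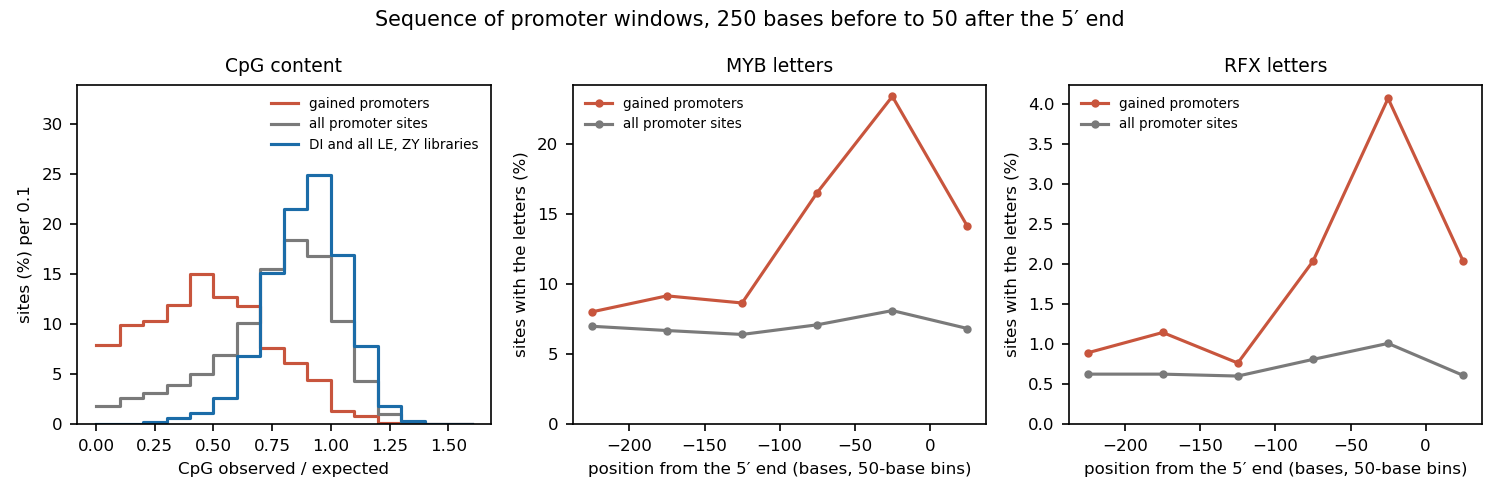
Left, distribution of the CpG observed to expected ratio in promoter windows of gained promoters, all promoter sites and promoter sites called in both diplonema and all 4 leptonema and zygonema libraries, as a percentage of sites per step of 0.1. Middle and right, percentage of sites in which MYB or RFX letters begin in each 50-base bin, by position from the 5′ end, with the gained promoters at 23.4% (MYB) and 4.07% (RFX) in the bin just before it.

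Noncoding RNA genes had a large part in the set. A protein-coding gene was present at 546 gained promoters (69.4%), against 89.8% of all promoter sites. Long noncoding RNA genes alone were present at 185 (23.5%, against 6.48%) and pseudogenes without either at 50 (6.35%, against 2.82%). Genes that still carry the name of a RIKEN clone from adult testis were present at 161 (20.5%), against 4.12%. The share with long noncoding RNA genes alone was 30.5% among promoters first called in diplonema, against 23.1% (early pachynema) and 20.0% (late pachynema), and 34.5% among the 258 without an early H3K4me2/3 peak. Gm49461 had the widest peak of all gained promoters in diplonema experiment 2, with 2059 and 4716 bp in the 2 experiments after 412 and 4270 bp in late pachynema, and an H3K9ac peak of 5464 bp in early pachynema. D130017N08Rik was called in all 6 later libraries, at 532 and 403 bp, 928 and 1520 bp, and 1454 and 2042 bp, and had H3K9ac from zygonema to diplonema. Repeats filled 94.7% of the promoter window of Gm49461.

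At some genes the gained site was a further promoter beside one that was marked from leptonema on. Of the 787 sites, 122 belonged to a gene with another promoter site. At 100 of these the other site had a peak in at least 1 leptonema or zygonema library, and at 51 (6.48%) the other site had a peak in all 4 leptonema and zygonema libraries. The gained 5′ end lay downstream of the early one at 39 of the 51 and upstream at 12, at a median distance of 28.4 kb (3.79 to 1475 kb). At 38 of the 51 a protein-coding transcript started at the gained site. An H3K4me2/3 peak in leptonema was found at the gained site of 23 of the 51 (45.1%).

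Crem is an example, with its early promoter called in all 10 libraries, at 1220 and 1337 bp in leptonema and 571 and 2234 bp in diplonema. The gained 5′ end, 38.3 kb downstream, had peaks of 815 and 936 bp in diplonema only, an H3K4me2/3 peak of 1618 bp in early pachynema followed by 2427 and 2763 bp, and an H3K9ac peak of 418 bp in early pachynema. Prkaca, which encodes the catalytic subunit of protein kinase A and was chosen after its values were seen, had a gained site 3.89 kb downstream of its early one. There the peaks spanned 547 bp in late pachynema experiment 2 and 631 and 939 bp in diplonema, while the early promoter had 1117 and 1643 bp in leptonema, no peak in diplonema experiment 1 and 568 bp in experiment 2. Its H3K4me2/3 peaks went from 2120 bp in leptonema to 1227 bp in diplonema at the early site, and at the gained site from none to 2707 bp.

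At Kdm2b, the gene of a histone demethylase of CpG islands, the gained site lay 51.6 kb upstream. Its peaks spanned 1341 bp in late pachynema experiment 2 and 1343 and 1962 bp in diplonema, while the early site had 1280 and 1426 bp in leptonema and, in diplonema, no peak in experiment 1 and 1232 bp in experiment 2. H3K4me2/3 in diplonema spanned 2774 bp at the gained and 3732 bp at the early site. The gained site already had H3K4me2/3 peaks of 2121 bp in leptonema and 737 bp in zygonema. Gatad1 (9.38 kb upstream) had 1239 and 1684 bp in diplonema at the gained site and 263 and 741 bp at the early one. For 1700028J19Rik (10.5 kb downstream) the values were 1394 and 1460 bp against 331 and 798 bp. At Ggnbp1 (56.0 kb downstream), Nemp1 (9.90 kb upstream) and Magi2 (1475 kb upstream), the gained site also had the wider diplonema peak in both experiments. The gained sites of Nemp1 and Magi2 had H3K4me2/3 peaks in leptonema and zygonema, while those of Gatad1, 1700028J19Rik and Ggnbp1 had none there. Apart from Crem and Prkaca, these genes were chosen for wide diplonema peaks at the gained site. Over all 51, the gained site had the wider diplonema peak in both experiments at 28, in 1 experiment at 12 and in neither at 11. Several of these gained sites also hold a 5′ end of another gene: Bak1 at Ggnbp1, Nab2 at Nemp1, Tmbim7 at Gatad1, 4921504A21Rik at Magi2 and Gm36864 at 1700028J19Rik.

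The distances from gained promoters to early ones and to each other were described without the same values for all promoter sites. They therefore do not show whether gained promoters lie farther from early ones, or closer together, than other promoters do. The nearest promoter site called in all 4 leptonema and zygonema libraries was at a median distance of 95.2 kb (interquartile range 35.2 to 261 kb), and 19 gained promoters lay within 5 kb of one. Groups of at least 3 gained promoters, each within 100 kb of the next, numbered 13 and held 47 of them. The largest, with 9 sites over 638 kb of chromosome 5, consisted of Speer1 and Gm genes, and a group of 4 followed on the same chromosome. The members of this family are near-identical copies, so that the placement of reads among them is uncertain. Other groups were Adam18, Adam3 and Adam5 on chromosome 8, Cmtm2a, Cmtm1 and Cmtm2b on the same chromosome, and Gsdmcl1 with its neighbours on chromosome 15. By family name, chosen after the data were seen, 7 of 10 axonemal dynein heavy chain genes (Dnah) with a promoter site had a gained promoter, as did 8 of 17 Adam genes, 10 of 28 Cfap genes and 8 of 274 Zfp genes. Every autosome had gained promoters, from 4.42% of the promoter sites of chromosome 9 to 9.20% of those of chromosome 10.

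The rule had many sites close to its limits. Promoter sites with a peak in both diplonema libraries and in 1 early library numbered 273, and at 200 of them the early peak was in leptonema experiment 2. These sites had an H3K4me2/3 peak in leptonema at 96.7%, against 61.8% just inside the rule, and H3K9ac in early pachynema at 50.5% against 32.0%. Sites with no early peak and a peak in 1 diplonema library numbered 1107, 1089 of them in experiment 2 alone, and H3K9ac in early pachynema was found at 5.33% of them.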

How the data were processed

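Peak lists were deposited by the authors for sorted nuclei. For H3K4me3 and H3K4me2/3 they aligned reads to mm10 with BWA 0.7.12 and called broad peaks per library with MACS2 2.1.2 against stage-matched input. For H3K9ac the control is not given in the sources used here. The deposited values are peak starts and ends on chromosomes 1 to 19, with no score, height or count, so depth is unknown and only positions and widths in bp could be compared. All peaks lay within the lengths of the mm10 chromosomes. Of 51 samples, 20 lists were used and 31 samples were not analysed here.

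H3K4me3 peaks that overlapped or adjoined were merged with Python 3.11.15 and numpy 2.4.6. A site counted as a promoter if it overlapped, by at least 1 bp, the 500 bp on either side of a GENCODE M21 transcript 5′ end (125891 distinct windows), and as called in a library if any of its peaks overlapped the site. The width given is that of the widest such peak. The members, gene lists, motifs and families were chosen with earlier results of these data known. Named genes were all list members, the 12 promoters with the highest mean width percentile over the diplonema libraries, up to 8 with late H3K9ac, up to 6 called in all later libraries, up to 6 with an early second promoter, and those of median and lowest width. Shares were compared over libraries with two-sided exact permutation tests, at a threshold of 0.05, and have exact 95% Clopper-Pearson intervals (scipy 1.17.1). The experiments were separate sorts by the study's purity records. Whether they used separate animals was not established here, so the spread between them may be technical. On simulated data, 200 of 200 planted members among 4000 promoters were recovered, with 0 false. The other simulated promoters were drawn so as not to meet the rule. This result therefore checks how the rule was run and not its errors on real lists. Alternatives changed the merging, promoter window, annotation, overlap, list length, call rules and libraries. Figures were drawn with matplotlib 3.10.9.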

Additional observations from a re-analysis of the deposited data

How the results depend on the processing

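The number of gained promoters stayed within 1.5 times of 787 under 14 of 16 alternatives. It was 487 with protein-coding transcripts only, and leaving out 1 library at a time gave 787 to 1876, the highest without diplonema experiment 1. The share first called in diplonema (28.7%) was 22.2% with protein-coding transcripts only, 19.7% with the same number of widest peaks from each list (4883), 23.6% when absence from 3 of the 4 early lists sufficed, and 76.1% when both libraries of a stage were required. Leaving out 1 library at a time gave 25.1% to 73.2%, with 48.5% without diplonema experiment 1 and 73.2% without late pachynema experiment 2. The widest peaks gave 1115 promoters, of which 439 overlapped the 787 (39.4% of the former, 55.8% of the latter), and there H3K9ac had the opposite sign, at -1.14 points. The cause was not tested.

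None of the 3 differences between stages passed the test or could have passed it with so few libraries. The H3K4me3 difference between late and early pachynema ran from 11.9 (without late pachynema experiment 2) to 58.5 points (without late pachynema experiment 1). The H3K4me2/3 difference ran from 13.0 points (widest peaks) to 50.7 points (at least 50% of the site covered), and was 15.2 points without diplonema experiment 1. The H3K9ac difference was 2.82 points with at least 50% of the site covered and 3.43 points without diplonema experiment 1. With the experiment number as a block the H3K4me3 difference was 35.3 points (exact sign flips, p = 0.5, the smallest possible), and likewise with crossed numbers, which were added after the data were seen because the differences between experiments in early and late pachynema had a correlation of -0.116 over promoter sites. Of all pairs of stages, late pachynema and diplonema had the largest such correlation, at 0.341. The rule used the diplonema libraries, and the part of this in the late pachynema shares was not tested. The lists carry no depth, so a missing peak sets no upper limit on the mark.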
